A study of Homo sapiens with 24 samples.

Results

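The genes described here are 9 genes of polyamine metabolism: ODC1, AMD1, SRM and SMS, which make polyamines, SAT1 and PAOX, which break them down, and OAZ1, OAZ2 and AZIN1, which control ODC1. Every probe set annotated to one of them was taken, whatever its signal, which gave 20 of the 54675 probe sets of the array; the array names 19775 genes by a probe set with 1 symbol. Of the 20 probe sets, 19 passed the filter on low values (a signal above the array median in at least 3 arrays) and 14 exceeded a signal of 100 in at least 3 arrays. The remaining probe set, 210593_at, is annotated to both ZSWIM8 and SAT1, read between 1.2 and 20.2 on all arrays and was not tested.

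Doxycycline was used to induce an shRNA, or short hairpin RNA, that targets the homeobox transcription factor gene OTX2 in D425, an established line of human medulloblastoma cells. The labels give 3 independent time courses of cells with this inducible hairpin (18 arrays, labelled shOTX2) and 1 course of control cells (6 arrays), each at 0, 8, 16, 24, 48 and 96 h after doxycycline. All cells grew in MEM medium with 10% fetal calf serum and were plated 24 h before doxycycline was added. What the control cells carry, and whether either line is 1 clone, is not given in the labels. OTX2, the target of the hairpin, was not called lower at 96 h on either of its 2 probe sets, which differed in sign. On 242128_at it read 3841.5, 4398 and 4324 at 96 h in shOTX2 courses 1, 2 and 3, against 4417, 4839 and 4719.5 at 0 h (log2 -0.15, SE 0.088, limma adjusted p = 0.19), and the control course read 5357 and 4964. On 231731_at it read 2980, 3417 and 3489 at 96 h, against 3198, 2898 and 2984 at 0 h (0.12, SE 0.098, adjusted p = 0.38), and the control course read 3881.5 and 3308. For the mean of 48 and 96 h minus the mean of 0 and 8 h, 231731_at was called higher in shOTX2 cells (0.21, SE 0.069, adjusted p = 0.021), and the difference between the arms in this change was not called on either (adjusted p = 0.80 and 0.89). These values do not check the labels, and the arrays are called by their labels.

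Polyamines (putrescine, spermidine and spermine) are small cations that bind RNA and DNA, and dividing cells make more of them than resting cells. ODC1 converts ornithine to putrescine, AMD1 decarboxylates S-adenosylmethionine to supply aminopropyl groups, and SRM and SMS add those groups to form spermidine and spermine. The antizymes OAZ1 and OAZ2 bind ODC1 protein and send it to the proteasome, AZIN1 sequesters antizyme, SAT1 acetylates spermidine and spermine, and PAOX oxidises the acetylated forms. ODC1 is a textbook target of the transcription factor MYC, which binds the E-box CACGTG, and MYC is amplified in D425 cells.

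For 7 of the 9 genes, 10 promoter windows of 300 bases (250 before to 50 after an annotated transcript start) were read from RefSeq on GRCh38.p14. Windows of ODC1 and SRM, whose transcripts fell most among the 9 genes, are shown with those of AMD1, which also fell, and SAT1, which rose, so that their letters can be compared. ODC1 has 2 annotated windows and AMD1 has 3, of which 1 each is printed. The printed ODC1 window lies at chr2:10447963-10448262 on the minus strand, that of SRM at chr1:11059969-11060268 on the minus strand, that of AMD1 at chr6:110874535-110874834 on the plus strand and that of SAT1 at chrX:23782923-23783222 on the plus strand. Each runs from 5′ to 3′ in lower case, with any E-box CACGTG in capitals.
ODC1: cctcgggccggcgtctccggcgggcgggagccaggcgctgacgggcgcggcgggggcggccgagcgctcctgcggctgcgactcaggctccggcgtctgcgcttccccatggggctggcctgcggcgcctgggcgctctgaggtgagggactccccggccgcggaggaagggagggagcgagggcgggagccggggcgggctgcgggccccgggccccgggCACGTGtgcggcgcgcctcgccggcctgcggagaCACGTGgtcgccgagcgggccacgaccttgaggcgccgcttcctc
SRM: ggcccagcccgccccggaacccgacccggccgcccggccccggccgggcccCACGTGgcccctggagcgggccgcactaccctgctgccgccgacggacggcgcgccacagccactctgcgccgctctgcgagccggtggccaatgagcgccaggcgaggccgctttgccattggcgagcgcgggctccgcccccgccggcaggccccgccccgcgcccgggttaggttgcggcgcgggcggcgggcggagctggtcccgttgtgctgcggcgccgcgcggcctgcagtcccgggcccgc
AMD1: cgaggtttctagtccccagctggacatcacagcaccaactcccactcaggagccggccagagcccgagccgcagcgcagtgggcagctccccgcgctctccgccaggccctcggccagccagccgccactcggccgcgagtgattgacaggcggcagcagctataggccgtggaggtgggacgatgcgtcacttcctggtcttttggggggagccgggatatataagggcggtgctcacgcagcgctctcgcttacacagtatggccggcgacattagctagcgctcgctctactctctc
SAT1: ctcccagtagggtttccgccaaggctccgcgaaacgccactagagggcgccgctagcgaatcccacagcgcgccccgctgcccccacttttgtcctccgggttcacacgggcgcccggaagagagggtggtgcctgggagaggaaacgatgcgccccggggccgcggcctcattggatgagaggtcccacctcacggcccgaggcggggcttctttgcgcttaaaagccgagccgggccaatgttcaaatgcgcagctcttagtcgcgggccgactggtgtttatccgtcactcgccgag
The E-box, which reads the same on both strands, occurred in 2 of the 10 windows. The printed ODC1 window held 2 copies, whose first bases lie at -29 and 5 relative to the start, while the window of the other ODC1 start, at chr2:10448278-10448577, held 0. The SRM window held 1 copy at -199. Among 35116 windows of the same length in the RefSeq table, 7.26% held it. TAATCC, the core that OTX proteins bind (GGATTA on the other strand, with no overlap with the E-box), was in 0 of the 10 windows and in 6.36% of all. A match or its absence describes only these letters.

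The median signal of an array ran from 16.3 to 20.6. Precision is limited by how many arrays there are. Array data from a whole culture cannot tell fewer cells of a type from less RNA per cell. The 3 shOTX2 courses are labelled as independent experiments, and nothing says whether they came from separate cell stocks. The ratio of the 3′ to the 5′ actin probe sets, which tracks RNA quality, averaged 1.42 ± 0.0836 (SD, n = 6 arrays) in course 1, 2.07 ± 0.198 in course 2 and 1.91 ± 0.0572 in course 3, against 1.40 ± 0.0858 in the control course, so course 1 alone resembled the control. Of the markers of this tumour type, OTX2, MYC, CRX, NRL, IMPG2 and PDE6H lay well above the array median at 0 h, while GABRA5 and EOMES averaged 16.8 and 10.9, near or below it, and LEMD1 did not pass the filter. Fibroblast markers, summed over 6 genes, gave 560.3 to 1127 in shOTX2 arrays at 96 h and 72.0 to 103 at 0 h, against 184 and 190 in the control course. By their brightest probe sets 4 of the 5 tested rose (COL1A1, COL1A2, COL3A1 and PDGFRB). COL1A1 averaged 542 at 96 h on that probe set, and its 5 kept probe sets differed in sign. COL1A2 averaged 18.7 at 96 h, within the range of the array medians. Neuronal markers, summed over 6 genes, gave 4410 to 4792 at 96 h and 2316 to 3522 at 0 h, against 2095 and 3088 in the control course, and 4 of 6 rose (DCX, STMN2, SNAP25 and MAP2). Astrocyte and oligodendrocyte markers summed to 346.5 to 372 at 96 h and 311.5 to 422 at 0 h, with OLIG2 higher and SLC1A3 lower among 5 tested. Immune and endothelial markers summed to 52.2 to 78.9 at 96 h and 38.6 to 79.1 at 0 h, with 0 of 2 tested called. CD14, VWF and GFAP averaged 1.30, 2.77 and 3.30 at 96 h, and no marker was at 0 on every array. The part of these cell type markers in the results below was not tested.

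At 96 h ODC1, SRM, AMD1, OAZ1 and AZIN1 were lower and SAT1 and OAZ2 were higher than at 0 h in shOTX2 cells. Of the 19 tested probe sets, 12 were called (Benjamini-Hochberg adjusted p under 0.05 over all 33803 probe sets), with 5 higher and 7 lower, where 36.8% of all probe sets were called (20.0% higher and 16.8% lower). By gene, with each gene read from its brightest probe set, 7 of 9 were called, where 42.5% of all 13903 genes were. All 12 called probe sets were among the 14 with signals over 100, where 53.3% of probe sets were called. How many of all probe sets had 96 h and 0 h groups that did not overlap, as given below by gene, was not counted. The members' median log2 change was -0.10 over the 19 probe sets, beside 0.05 over all probe sets, and -0.42 by gene, beside -0.00 over all genes. The median change of all probe sets became -0.10 once arrays were centred on their own medians, so changes of about this size have no direction here. The share of called probe sets that were higher was 54.3% as reported (6748 higher, 5688 lower) and 39.8% with that centring (5052 higher, 7631 lower).

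**Figure D1:**
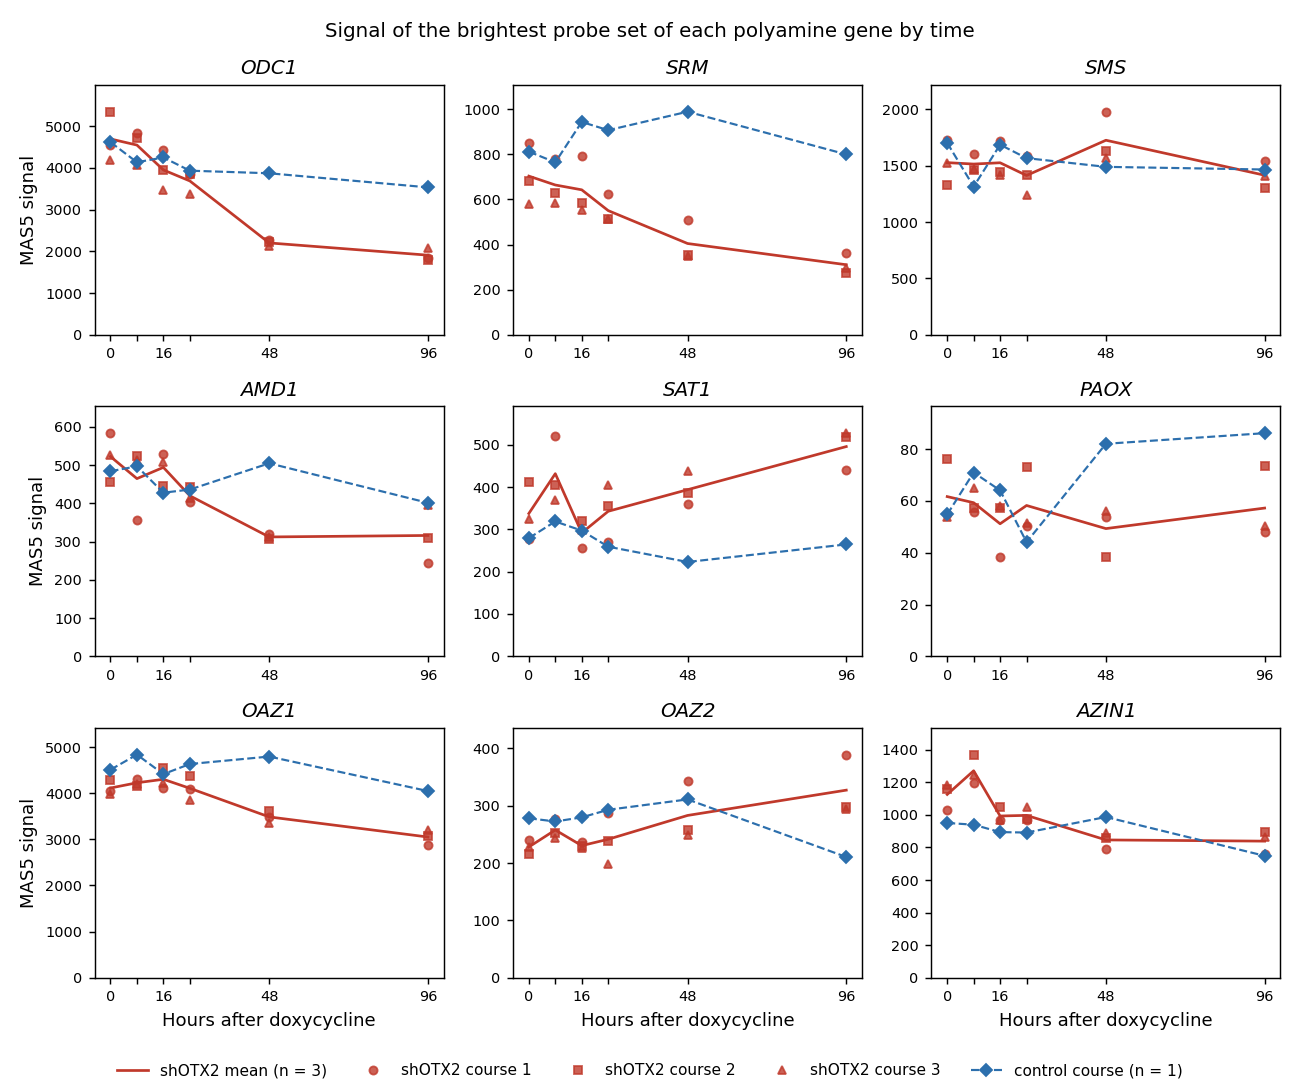
MAS5 signal (vertical axes, linear, from 0) of the brightest probe set of each of the 9 genes against hours after doxycycline. Red points are the 3 shOTX2 courses, red lines their mean (n = 3 per time) and blue diamonds the control course (n = 1 per time). For ODC1 all 3 shOTX2 arrays lie below the control array of the same time at 24, 48 and 96 h, and for SRM at 16, 24, 48 and 96 h, with means of 1909 and 311 at 96 h in shOTX2 cells against 3534.5 and 799.5 in control cells.

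ODC1, the rate-limiting enzyme of the pathway, had the largest change among the 9 genes at 96 h. Its single probe set, 200790_at, read 1849, 1802.5 and 2076 at 96 h in shOTX2 courses 1, 2 and 3, against 4540, 5347.5 and 4197 in the same courses at 0 h. The groups did not overlap, and the 96 h mean was 40.7% of the 0 h mean. On the log2 scale it fell by 1.29 (SE 0.11, limma adjusted p = 3.2e-08), and under every alternative of the closing section it stayed called, with changes between -1.44 and -1.15. Its time course was gradual up to 24 h and steeper after it. Means for 0, 8 and 24 h were 4695 ± 591, 4548 ± 418 and 3688 ± 276, followed by 2203 ± 73.5 for 48 h and 1909 ± 146 for 96 h (SD, n = 3 arrays each). At 24 h the log2 change of -0.34 was not called (adjusted p = 0.088). A replicate block for the course brought it past the threshold (adjusted p = 0.0103, range over the alternatives 0.0103 to 0.646). From 24 to 48 h it fell by 0.74 (SE 0.11, adjusted p = 0.00014). From 48 to 96 h the further -0.21 was not called under any alternative (adjusted p from 0.097 to 0.77). The control course read 4618, 4136.5, 4250 and 3934 over the first 24 h, then 3872 at 48 h and 3534.5 at 96 h, so all 5 later control arrays lay below their own 0 h array too, the last at 76.5% of it.

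SRM, the spermidine synthase, fell as well. At 96 h its probe set 201516_at read 363, 274 and 295 in shOTX2 courses 1, 2 and 3, against 848, 683 and 578 in them at 0 h. Every 96 h array lay below every 0 h array, and the mean of 311 ± 46.9 was 44.2% of the 0 h mean of 703 ± 136 (SD, n = 3 each). The log2 change was -1.13 (SE 0.18, limma adjusted p = 5.9e-05). The control course read 799.5 at 96 h and 812 at 0 h and a range of 764 to 989 over its 6 arrays. At 48 h the change was -0.78 (SE 0.18, adjusted p = 0.00299), and without course 2 it was -0.71 and not called (adjusted p = 0.103, range over the alternatives 9.74e-08 to 0.103). With the replicate block SRM was already called at 24 h, at -0.33 (adjusted p = 0.0085, against 0.42 without the block, range over the alternatives 0.00853 to 0.894), and again for each step after that, at -0.44 from 24 to 48 h (adjusted p = 0.00028, against 0.12, range 0.000277 to 0.508) and at -0.35 from 48 to 96 h (adjusted p = 0.0033, against 0.283, range 0.00335 to 0.716). The 24 to 48 h step was also called without course 1 (-0.53, adjusted p = 0.0037).

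AMD1, which supplies the aminopropyl donor, fell on both of its probe sets. The brighter, 201197_at, read 243, 309 and 397 at 96 h in shOTX2 courses 1, 2 and 3, against 584, 456 and 528 at 0 h, with a log2 change of -0.72 (SE 0.16, limma adjusted p = 0.0016). On 201196_s_at it read 143, 205 and 214 at 96 h, against 332, 289 and 342 at 0 h, a change of -0.74 (SE 0.15, adjusted p = 0.000804). Neither probe set's groups overlapped. Course 1 changed most, by -1.21 on the first probe set, where courses 2 and 3 changed by -0.54 and -0.40 and the control course by -0.26. At 48 h the changes were already -0.71 and -0.83 on the log2 scale (SE 0.16 and 0.15, adjusted p = 0.0027 and 0.00052), and from 48 to 96 h the brighter probe set changed by -0.01 (adjusted p = 0.988), or 0.04 with the mean of its probe sets and 0.17 without course 1.

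SMS, the spermine synthase, was not called at 96 h. Its probe set 202043_s_at read 1541, 1300 and 1404 at 96 h in shOTX2 courses 1, 2 and 3, against 1725, 1332 and 1523 at 0 h, and these groups overlapped. The log2 change was -0.10 (SE 0.12, limma adjusted p = 0.55), and quantile normalization gave 0.03. With the replicate block alone it was called higher from 24 to 48 h (0.28, adjusted p = 0.0053, against 0.149 without it, range 0.00527 to 0.509) and lower from 48 to 96 h (-0.28, adjusted p = 0.0084, against 0.192 without it, range 0.0084 to 0.64). Its signal peaked at 48 h in all 3 shOTX2 courses, at 1978, 1632 and 1564.5, where the control course read 1489, below all 3.

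**Figure D2:**
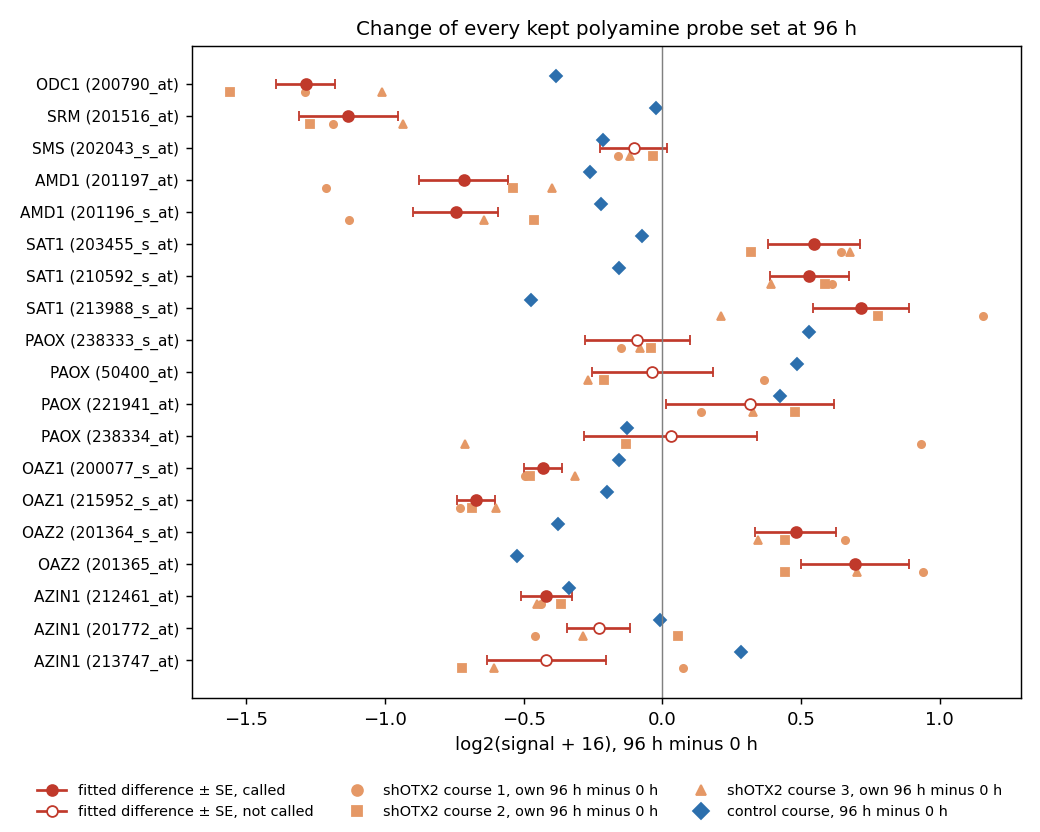
Log2 change from 0 to 96 h (horizontal axis) of the 19 tested probe sets. Red circles are fitted shOTX2 changes with their SE, filled where called, orange points are the 3 courses taken singly and blue diamonds the control course. For ODC1 and SRM each shOTX2 course lies left of the control, from -1.56 to -0.94, and for SAT1 and OAZ2 each lies right of it.

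SAT1, which acetylates spermidine and spermine, rose on all 3 tested probe sets. The brightest, 203455_s_at, read 441, 519 and 527.5 at 96 h in shOTX2 courses 1, 2 and 3, against 277, 412 and 324 at 0 h, a log2 change of 0.55 (SE 0.17, limma adjusted p = 0.015). Probe set 210592_s_at read 398, 361 and 324 at 96 h, against 255, 235 and 243 at 0 h (0.53, SE 0.14, adjusted p = 0.0067). Probe set 213988_s_at read 299, 236 and 191 at 96 h, against 125, 131 and 162 at 0 h (0.72, SE 0.17, adjusted p = 0.0031). On none of them did the 96 h and 0 h groups overlap. These calls were less firm than those of ODC1 and SRM. Without course 2 none of the 3 was called (adjusted p = 0.063, 0.12 and 0.073), and 203455_s_at also lost its call without course 3 (adjusted p = 0.15) and with arrays centred on their medians (0.40, adjusted p = 0.071). Over all alternatives its adjusted p ran from 0.00034 to 0.15. SAT1 did not climb steadily. At 8 h it stood above the 0 h array of the same course in 8 of 9 pairs of probe set and course, with 522 in course 1 on 203455_s_at, against 277 at 0 h. These pairs share the same arrays. The control course read 319, 261.5 and 149 at 8 h on the 3 probe sets, against 279, 259.5 and 172 at 0 h. None of the shOTX2 changes at 8 h was called (0.34, 0.44 and 0.55 on the log2 scale), and 0% of all probe sets were called by limma at 8 h, with 1070 at an unadjusted p under 0.05. By 16 h the 203455_s_at values were 257, 321 and 298, each below the 0 h array of the same course. The other 2 tested probe sets did not fall below 0 h on average. The 16 h mean was 252 on 210592_s_at and 163 on 213988_s_at, against 244 and 140 at 0 h. No SAT1 probe set was called at 16 h.

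PAOX, the oxidase of acetylated polyamines, was dim on all 4 of its probe sets, and none was called at any time. Only 238333_s_at, at 38.2 to 86.2, stayed above the array medians of 16.3 to 20.6 on every array. The brightest, 238333_s_at, read 47.9, 73.7 and 50.2 at 96 h in shOTX2 courses 1, 2 and 3, against 54.8, 76.3 and 54.0 at 0 h (log2 -0.09, SE 0.19, limma adjusted p = 0.76). The control course read 86.2 at 96 h and 54.8 at 0 h there, so its 96 h array lay above all 3 shOTX2 arrays. The other 3 had means between 9.85 and 26.4 over all arrays, and 238334_at and 50400_at changed sign between alternatives. On the dimmest, 238334_at, the courses changed by 0.93, -0.13 and -0.71. On 221941_at the 96 h and 0 h arrays did not overlap, but the change of 0.31 (SE 0.30, adjusted p = 0.465) was about the size of its own error.

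Among the regulators, the antizyme gene OAZ1 fell and its paralogue OAZ2 rose. OAZ1 on 200077_s_at read 2869, 3076 and 3207 at 96 h in shOTX2 courses 1, 2 and 3, against 4055, 4293 and 3990 at 0 h, a log2 change of -0.43 (SE 0.069, limma adjusted p = 7.8e-05). On 215952_s_at it read 2425, 2431 and 2614 at 96 h, against 4035, 3924 and 3973 at 0 h (-0.67, SE 0.069, adjusted p = 4.7e-07). All arrays at 48 and 96 h lay below all at 0 to 24 h on both probe sets. The same held for ODC1, SRM, 201196_s_at of AMD1 and 212461_at of AZIN1. The share of all probe sets that separate in this way was not counted. Neither OAZ1 probe set was called up to 24 h (24 h log2 -0.00 and 0.02). The step came between 24 and 48 h, with -0.49 on 215952_s_at (SE 0.069, adjusted p = 0.00012) and -0.23 on 200077_s_at (SE 0.069, adjusted p = 0.034). The smaller step was not called without any 1 of the 3 courses (adjusted p from 0.118 to 0.226, range over the alternatives 0.000564 to 0.226), and the same held for the 48 h change of -0.24 (adjusted p = 0.016, and 0.066 to 0.126 without a course, range over the alternatives 0.00027 to 0.126). Both calls were also lost with no mean-variance trend in the fit and with only the compared groups fitted, and the smaller step with no filter.

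OAZ2 on 201364_s_at read 389, 298 and 294 at 96 h in shOTX2 courses 1, 2 and 3, against 241, 215 and 229 at 0 h, a log2 change of 0.48 (SE 0.15, limma adjusted p = 0.014). On 201365_at it read 373, 239 and 246 at 96 h, against 186.5, 172 and 145 at 0 h (0.69, SE 0.19, adjusted p = 0.0085). The groups did not overlap on either. The first call was lost with median centring (0.33, adjusted p = 0.088), without course 2 (adjusted p = 0.13) and without course 3 (adjusted p = 0.054), and the second without course 3 (adjusted p = 0.099). Over the alternatives the adjusted p ran from 0.00038 to 0.13 on the first and from 2.2e-05 to 0.099 on the second. Course 1 had the largest change on both, at 0.66 and 0.94, and the control course changed by -0.38 and -0.52.

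AZIN1, the antizyme inhibitor gene, had negative log2 changes at 96 h on all 3 of its probe sets, of which 1 was called. On 212461_at, the brightest, it read 759, 896 and 862 at 96 h in shOTX2 courses 1, 2 and 3, against 1033, 1160 and 1185 at 0 h, a log2 change of -0.42 (SE 0.092, limma adjusted p = 0.0014). On 201772_at the values were 686, 830 and 809 at 96 h, against 950, 798 and 989 at 0 h, and the change of -0.23 (SE 0.11, adjusted p = 0.13) was called with the replicate block (adjusted p = 0.048) and with median centring (-0.38, adjusted p = 0.012), with a range of 0.012 to 0.51 over the alternatives. On 213747_at, a dim probe set with 39.8 to 46.5 at 96 h and 43.3 to 82.5 at 0 h, the change was -0.42 (SE 0.21, adjusted p = 0.14). It was called with median centring (-0.57, adjusted p = 0.041), with quantile normalization (-0.58, adjusted p = 0.034) and without course 1 (-0.66, adjusted p = 0.019), with a range of 0.0194 to 0.556. The control course was lower on 212461_at too, with 749 at 96 h and 951 at 0 h, or -0.34 on the log2 scale.

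The calls came late. At 8, 16 and 24 h, 0 of the 19 probe sets were called, where 0%, 0.580% and 3.54% of all probe sets were. At these times 2, 1 and 2 of the 19 had an unadjusted limma p under 0.05, as did 1070, 3153 and 5012 of all 33803. At 48 h, 7 of 19 were called, where 26.5% of all were (12.3% lower), and all 7 were lower: ODC1, SRM, both AMD1, both OAZ1 and 212461_at of AZIN1 (-0.40, SE 0.092, adjusted p = 0.0029). By gene this was 5 of 9, where 31.9% of all genes were called. Without course 2 it was 2 of 9 and without course 3 it was 3 of 9, and without either the AZIN1 call was lost (adjusted p = 0.067 each). With the replicate block OAZ2 on 201364_s_at (0.28, adjusted p = 0.031) and SAT1 on 210592_s_at (0.38, adjusted p = 0.0051) and 213988_s_at (0.38, adjusted p = 0.046) were called higher at 48 h as well. Between 24 and 48 h, 4 of 19 were called lower, where 5.77% of all probe sets were called lower: ODC1, both OAZ1 and 201196_s_at of AMD1 (-0.53, adjusted p = 0.029, lost without course 2 or course 3 at adjusted p = 0.31 and 0.13, and with only the compared groups fitted at 0.058). Between 48 and 96 h, 0 of 19 were called by limma, where 7.75% of all were. There 5 of 19 had an unadjusted p under 0.05, as did 6858 of all 33803. With the block, OAZ1 was called lower in that last step at -0.19 and -0.20 (adjusted p = 0.028 and 0.024, against 0.108 and 0.085 without it), and OAZ2 on 201365_at higher at 0.50 (adjusted p = 0.00300, against 0.137).

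The control course gives the change over the same hours of doxycycline in control cells. With 1 control course, hairpin, cell line and course cannot be told apart in a difference between the arms. At 0 h, 0 of the 19 probe sets were called by limma between shOTX2 and control arrays, where 0.210% of all were, and 0 had an unadjusted p under 0.05. For late against early arrays (the mean of 48 and 96 h minus the mean of 0 and 8 h), 9 of 19 probe sets were called in the shOTX2 arm, where 43.1% of all were, and 0 of 19 in the control arm, where limma called 0 of all 33803 probe sets and 2331 had an unadjusted p under 0.05. In the 6 late shOTX2 arrays ODC1, SRM, both AMD1 and both OAZ1 probe sets lay below all 6 control arrays. Of SAT1, 203455_s_at and 210592_s_at lay above them and 213988_s_at overlapped them. Every tested probe set of SMS, OAZ2, AZIN1 and PAOX overlapped the control arrays as well. The share of all probe sets that separate in this way was not computed. On 203455_s_at the highest shOTX2 array at 0 h, at 412, already exceeded the highest control array, at 319. No SAT1 probe set was called for late against early in shOTX2 cells (log2 0.21, 0.23 and 0.27, limma adjusted p = 0.16, 0.071 and 0.083). The difference between the arms was not called on them either (0.50, 0.29 and 0.51). Each control time has 1 array, whose variance is taken to equal that of the shOTX2 groups. The difference between the arms in this change was called for 5 of 19 probe sets, where 16.1% of all were. The difference was -0.92 for ODC1 (SE 0.15, adjusted p = 0.00033), -1.09 for SRM (SE 0.25, adjusted p = 0.0059), -0.45 for 215952_s_at of OAZ1 (SE 0.097, adjusted p = 0.0037) and -0.72 for 201196_s_at of AMD1 (SE 0.22, adjusted p = 0.0297). For OAZ2 on 201365_at it was 0.93 (SE 0.27, adjusted p = 0.027).

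**Figure D3:**
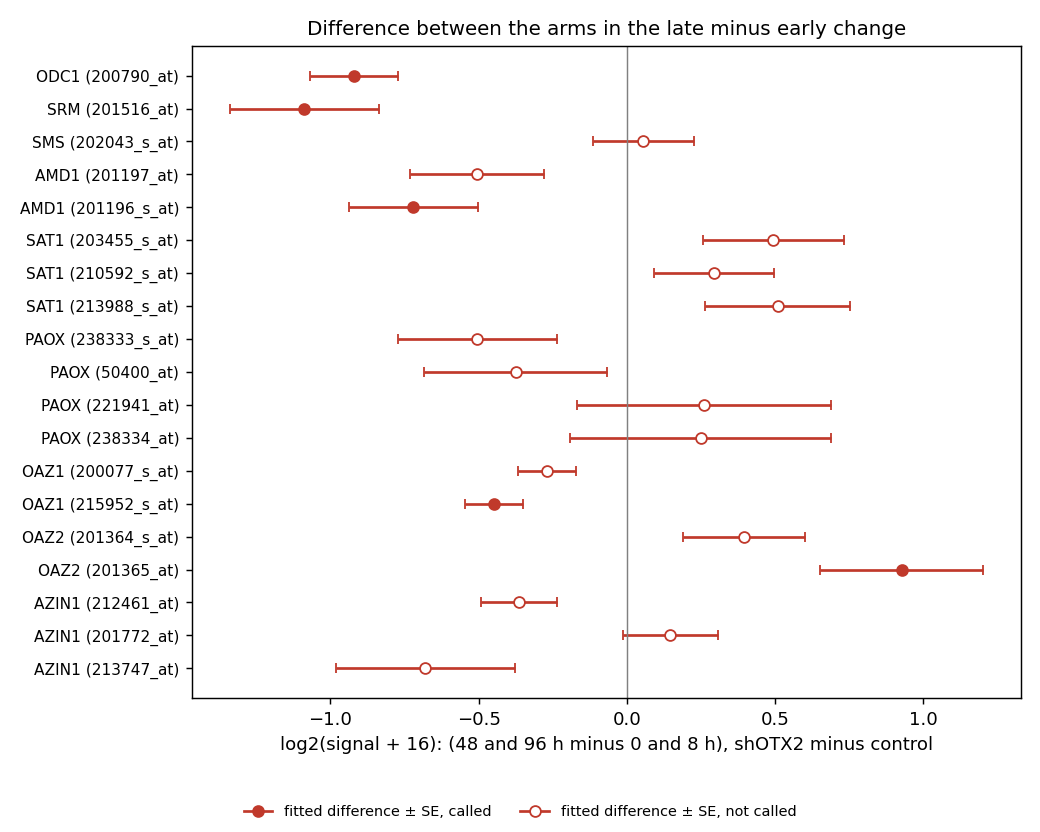
Difference between the arms in the late minus early log2 change (horizontal axis; shOTX2 minus control) of the 19 tested probe sets, with its SE, filled where called. Of the 5 called, ODC1, SRM and 1 probe set each of AMD1 and OAZ1 lie left of 0, between -1.09 and -0.45, and OAZ2 on 201365_at lies right of it at 0.93. On that OAZ2 probe set the late minus early change was 0.46 in shOTX2 cells and -0.47 in the control course.

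Of these differences, those of ODC1 and 215952_s_at of OAZ1 stayed called under every alternative run (adjusted p up to 0.012 and 0.043). SRM lost its call without course 2 (-1.03, adjusted p = 0.074, range 3.8e-07 to 0.074). The AMD1 call was lost without course 2 (adjusted p = 0.12) or course 3 (adjusted p = 0.079), with a range of 0.00201 to 0.123. The OAZ2 call was lost without course 2 (adjusted p = 0.069), without course 3 (adjusted p = 0.12) and with median centring (0.81, adjusted p = 0.053), with a range of 0.00013 to 0.12. With the replicate block 3 further probe sets were called: 200077_s_at of OAZ1 (-0.27, adjusted p = 0.019, against 0.072 without it), 212461_at of AZIN1 (-0.36, adjusted p = 0.0078, against 0.066) and 201364_s_at of OAZ2 (0.40, adjusted p = 0.0403, against 0.227).

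For 96 h against 0 h alone, which rests on 1 control array per time, the arms differed on 3 of 19 probe sets, where 8.95% of all did. ODC1 was at -0.90 (SE 0.21, adjusted p = 0.011), 215952_s_at of OAZ1 at -0.47 (SE 0.14, adjusted p = 0.038) and 213988_s_at of SAT1 at 1.19 (SE 0.35, adjusted p = 0.039). Without course 2 none of these was called (adjusted p = 0.116, 0.153 and 0.200), and OAZ1 also lost its call without course 1 or course 3 (adjusted p = 0.093 and 0.076), with no filter (0.083) and with no trend (0.18). The SAT1 call was also lost with no filter (adjusted p = 0.056), median centring (0.061) and no trend (0.052). For ODC1 the adjusted p ran from 0.000561 to 0.116. SRM, at -1.11, was not called (SE 0.36, adjusted p = 0.061) but was with the replicate block (adjusted p = 4.2e-05, range over the alternatives 4.2e-05 to 0.28). The same was true of OAZ2, at 0.86 and 1.22 (adjusted p = 0.079 and 0.059, and 0.0039 and 0.000496 with the block), and of 210592_s_at of SAT1 at 0.68 (adjusted p = 0.16, and 0.020 with the block). Course 1 is the one shOTX2 course with an actin ratio like that of the control. Its differences from the control were -0.90 for ODC1 and -1.17 for SRM. For AMD1 they were -0.95 on 201197_at and -0.91 on 201196_s_at. For SAT1 they were 0.72 on 203455_s_at, 0.77 on 210592_s_at and 1.63 on 213988_s_at. For OAZ1 they were -0.34 on 200077_s_at and -0.53 on 215952_s_at. For OAZ2 they were 1.03 on 201364_s_at and 1.47 on 201365_at. For AZIN1 they were -0.10 on 212461_at, -0.45 on 201772_at and -0.21 on 213747_at.

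The rest of the pathway was read from lists of neighbouring genes, each gene by its brightest probe set, beside the 42.5% of all genes called at 96 h. These lists were chosen with earlier results of these data known, so their counts describe only the listed genes. The arms differed in the late minus early change for 0 of 4 further enzymes, 4 of 6 transport genes, 8 of 14 arginine and ornithine genes, 5 of 13 methionine genes and 0 of 4 hypusination genes, where 20.6% of all genes did. Under every alternative run, 1 of the 4 transport calls held (CAV1), with 6 of the 8 arginine and ornithine calls and 3 of the 5 methionine calls (MTRR, ENOPH1 and GOT1). Among further polyamine enzymes and antizymes, 1 of 4 tested genes rose at 96 h and 0 fell, with a median log2 change of 0.45. SAT2, an acetyltransferase related to SAT1, averaged 363 ± 104 at 96 h and 183 ± 26.3 at 0 h in shOTX2 arrays (SD, n = 3 each; 0.91, SE 0.22, limma adjusted p = 0.0028), while the control course read 263 at 96 h and 180 at 0 h. SMOX, the spermine oxidase (0.47, adjusted p = 0.16), AZIN2 (0.43, adjusted p = 0.096) and OAZ3 (-0.14, adjusted p = 0.75) were dim and not called.

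Of 6 tested genes of polyamine transport, 4 fell and 0 rose, with a median of -0.73. CAV1, caveolin 1, is linked to polyamine uptake by endocytosis, and uptake itself was not measured here. CAV1 averaged 41.6 ± 9.06 at 96 h and 398 ± 11.3 at 0 h in shOTX2 arrays (-2.86, SE 0.17, limma adjusted p = 9.5e-10), against 360 and 410 in the control course. SLC3A2, the heavy chain of several amino acid transporters, fell by 0.97 (SE 0.25, adjusted p = 0.0048), a call lost without course 3 (adjusted p = 0.052). SLC18B1, a vesicular polyamine transporter, fell by 0.68 (adjusted p = 0.00079).

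Genes that supply arginine, ornithine and proline were mostly lower. Of 14 tested genes of that list, 8 fell and 1 rose, with a median of -0.92. SLC7A2, an arginine and lysine transporter, averaged 148 ± 52.1 at 96 h and 975 ± 99.7 at 0 h in shOTX2 arrays (-2.65, SE 0.24, limma adjusted p = 1.03e-07), against 1393 and 890 in the control course. ASL, which releases arginine from argininosuccinate, changed by -1.72 (SE 0.25, adjusted p = 2.99e-05). CPS1, the mitochondrial carbamoyl phosphate synthetase of the urea cycle and the one that rose, averaged 659 ± 33.7 at 96 h and 149 ± 11.1 at 0 h (2.04, SE 0.15, adjusted p = 7.6e-09), against 258 and 188 in the control course.

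Of 13 tested genes of the methionine cycle and methylthioadenosine salvage, which regenerate the AMD1 substrate, 6 fell and 0 rose, with a median of -0.27. GOT1, an aminotransferase that can act in the last salvage step, averaged 233 ± 28.0 at 96 h and 441 ± 10.6 at 0 h in shOTX2 arrays (-0.89, SE 0.11, limma adjusted p = 4.6e-06). AHCY, which clears S-adenosylhomocysteine, changed by -0.75 (SE 0.22, adjusted p = 0.012), a call lost without course 2 (adjusted p = 0.18) or course 3 (adjusted p = 0.072). APIP, a dehydratase of the salvage route, changed by -0.74 (SE 0.12, adjusted p = 7.1e-05), but its 2 probe sets differed in sign, and their mean changed by -0.17 (adjusted p = 0.35). Of the 4 genes of eIF5A hypusination, the modification made from spermidine, EIF5A fell by 0.54 (SE 0.17, adjusted p = 0.017). This call was lost when its probe sets were averaged (-0.28, adjusted p = 0.11) and without course 2 or course 3 (adjusted p = 0.077 and 0.12). EIF5A was lower in the control course too, at 245 at 96 h and 325 at 0 h. Its late difference between the arms was 0.05 on the log2 scale. DOHH (-0.53, adjusted p = 0.071), DHPS (0.23, adjusted p = 0.37) and EIF5A2 (0.20, adjusted p = 0.28) were not called.

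**Figure D4:**
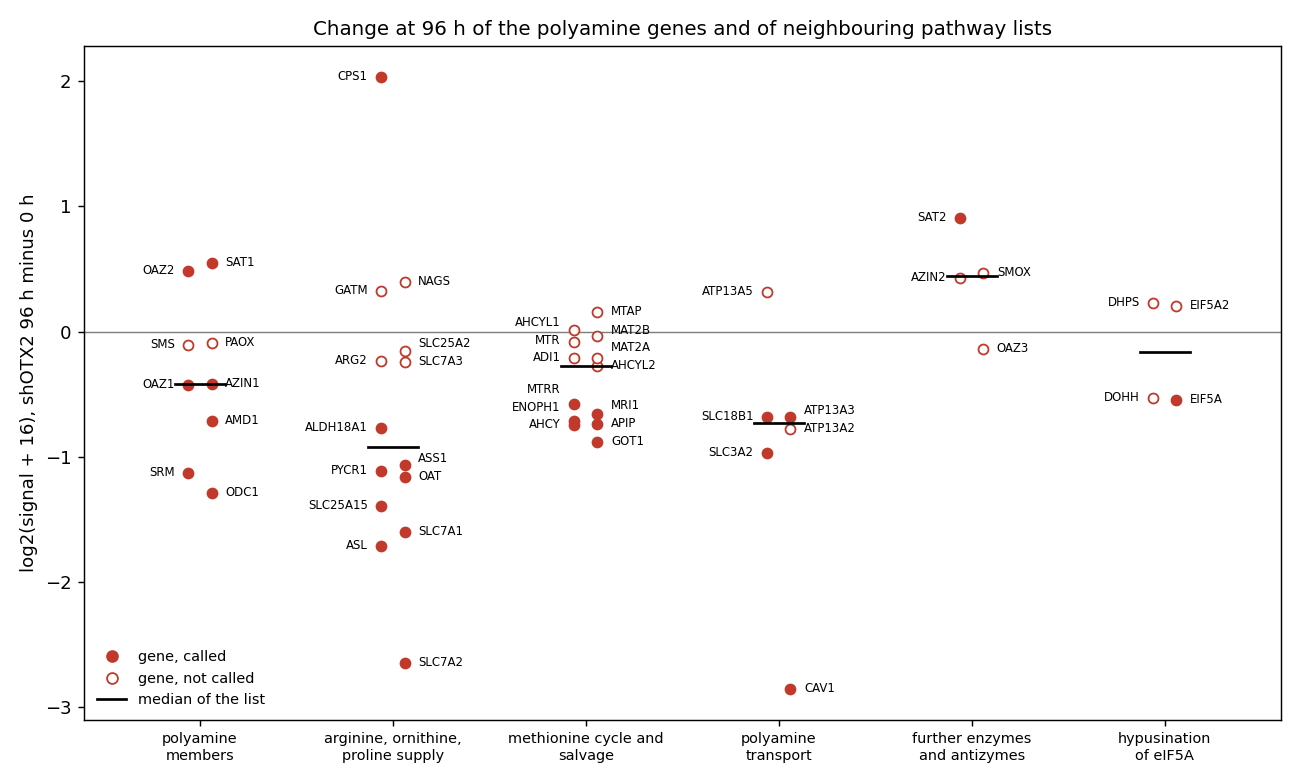
Log2 change from 0 to 96 h in shOTX2 cells (vertical axis) of the 9 polyamine genes and of 5 neighbouring lists, 1 point per gene by its brightest probe set, filled where called. Black bars are list medians. The median is lowest in the arginine, ornithine and proline list, at -0.92, where CPS1 at 2.04 is the one called rise.

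MYC and proliferation genes were read beside these because MYC regulates ODC1. Of the 5 genes of this list, 4 fell and 1 rose at 96 h, with a median of -0.71. MYC averaged 3064 ± 178 at 96 h and 5022 ± 389 at 0 h in shOTX2 arrays (-0.71, SE 0.11, limma adjusted p = 6.7e-05), against 6767 and 5804 in the control course. Its partner MAX changed by -0.51 (SE 0.10, adjusted p = 0.00054), which was lost when its probe sets were averaged (-0.27, adjusted p = 0.14). MYCN, a paralogue of MYC, rose at a low level, to 110 ± 18.7 at 96 h, against 8.83 ± 4.95 at 0 h (2.36, SE 0.26, adjusted p = 1.2e-06). Of the 10 probe sets of MYCN, only this 1 passed the filter. The proliferation markers MKI67 (-2.20, SE 0.15, adjusted p = 5.4e-09) and PCNA (-1.28, SE 0.099, adjusted p = 1.7e-08) fell. In the control course, MKI67 read 195 at 96 h and 498 at 0 h, and PCNA 1765 and 2502, so both were lower there too. The part of MYC and of proliferation in the members' changes was not tested.

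Over the 24 arrays, the genes whose log2 signals followed ODC1 most closely among 13894 other genes were TRIP13 (Pearson r = 0.989), TXNDC12 (0.988) and GTF3A (0.982). TRIP13, an ATPase of the mitotic checkpoint, averaged 114 ± 30.8 at 96 h and 753 ± 165 at 0 h in shOTX2 arrays, TXNDC12, a thioredoxin-like protein of the endoplasmic reticulum, 715 ± 52.9 and 2283 ± 171, and GTF3A, transcription factor IIIA, 1053 ± 87.3 and 2714 ± 316 (SD, n = 3 each). For SAT1 the closest were JKAMP (0.836), DYNC1I1 (0.830) and PIK3R1 (0.826), at lower r than for ODC1. The points of these correlations share arrays, time courses and scaling, so they describe these arrays alone.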

How the data were processed

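Expression was measured in 24 D425 samples on the Affymetrix U133 Plus 2.0 array. The deposited values are intensity values, the MAS5 signal of each probe set, computed and scaled by the authors, per the submitters' processing notes (no version is given). The 2% trimmed mean of each array is 100.0. Array number and signal over background limit precision.

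Probe sets named AFFX (62) were left out, and 33803 of 54675 passed a signal above the array median in at least 3 arrays. Values were log2(signal + 16), so folds of dim probe sets are understated. limma 3.58.1 in R 4.3.3 fitted 12 group means with 12 residual degrees of freedom (lmFit, eBayes with trend), and p-values were Benjamini-Hochberg adjusted over 33803 probe sets and called under 0.05. Control groups hold 1 array each and take the variance of the shOTX2 groups. The test was checked on simulated arrays drawn independently of each other, so that check does not cover deviations shared within a course. Gene names come from GEO's platform annotation: 41097 probe sets have 1 symbol, 1801 several and 11777 are not listed. A gene is its brightest kept probe set. Groups and courses follow the labels. Arrays of a course deviated together in 45 of 45 same-course pairs (r 0.175 to 0.600, median 0.257), so a replicate block by course was fitted as an alternative. Other alternatives were the pseudocount, filters, centring, quantile normalization, probe set rule, trend, samples fitted and leaving out each course.

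The named genes are all members, the 3 most changed called genes of each neighbouring list with every gene of the 3 short lists, and the 3 genes most alike ODC1 and SAT1. Members and lists were chosen with earlier results of these data known. Promoter windows are RefSeq's, for 7 genes. Those of AZIN1 and PAOX were not used here.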

Additional observations from a re-analysis of the deposited data

Results flagged for a closer look

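For these probe sets the change over time differed between shOTX2 and control cells in the test of that difference (limma, adjusted p under 0.05), with 1 control array per time. For late against early arrays the difference, shOTX2 minus control, was -0.92 for ODC1, -1.09 for SRM, -0.72 for 201196_s_at of AMD1, -0.45 for 215952_s_at of OAZ1 and 0.93 for 201365_at of OAZ2. For 96 h against 0 h it was -0.90 for ODC1, -0.47 for 215952_s_at of OAZ1 and 1.19 for 213988_s_at of SAT1. The late difference on 201365_at of OAZ2 held a change of 0.46 in shOTX2 cells and -0.47 in the control course.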

How the results depend on the processing

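Of 1125 alternative values of 87 member results, 1005 kept direction and call, 42 lost the call, 60 gained it and 18 changed sign. The cause was not tested, except that fitting 1 value per gene tests fewer features.

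The number of probe sets called was 0, 196 and 1195 at 8, 16 and 24 h, then 8966 at 48 h and 12436 at 96 h. With the replicate block, which pairs arrays by course, it was 1 at 8 h, 1248 at 16 h, 3660 at 24 h, 7970 from 24 to 48 h (4042 without), 6000 from 48 to 96 h (2619 without), 159 for late against early in control (0 without), 9499 for the late difference between arms (5454 without) and 6485 for that at 96 h (3025 without). With 1 probe set per gene, 4634 genes were called at 48 h, 6065 at 96 h, 2470 from 24 to 48 h, 1643 from 48 to 96 h, 6850 for late against early in shOTX2 (14580 probe sets), 3130 for the late and 1906 for the 96 h difference between arms. With the mean of a gene's probe sets these were 125 at 16 h, 796 at 24 h, 4543, 5946, 2334, 1507, 6815, 3004 and 1823. Fitting only the groups compared gave 0 at 16 h, 449 at 24 h and 1573 from 48 to 96 h. A pseudocount of 64 gave 1 at 8 h, and 1 gave 13 for late against early in control and 166 between arms at 0 h (71 as reported). No filter gave 11 for late against early in control.

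Leaving out 1 course gave 0 to 191 at 16 h, 71 to 1273 at 24 h, 4372 to 9964 at 48 h, 7724 to 12926 at 96 h, 1096 to 5283 from 24 to 48 h, 104 to 2374 from 48 to 96 h, 0 to 13 for late against early in control, 2802 to 7971 and 1037 to 4657 for the late and 96 h differences between arms, and 15 to 1463 between arms at 0 h. The lowest count came without course 2, save in the control arm.

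Of the 9 genes, 0 were called at 24 h, against 1 with quantile normalization and 2 with the block. At 48 h it was 5, or 2 to 4 without a course. For the late difference between arms it was 2, against 4 with the stricter filter or median centring, 5 with the mean of probe sets or the block and 1 to 5 without a course. For that at 96 h it was 1, against 3 with the stricter filter or the block, 2 with median centring or 1 probe set per gene, 4 with the mean of probe sets and 0 to 3 without a course.

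Values that changed sign were all uncalled, apart from APIP. Without a course SAT1 at 24 h ran from -0.12 to 0.13, OAZ1 at 24 h from -0.020 to 0.021, OAZ2 at 24 h from -0.024 to 0.19, 50400_at of PAOX at 96 h from -0.24 to 0.079, 238334_at of PAOX from -0.42 to 0.40, AMD1 from 48 to 96 h from -0.18 to 0.17 and AZIN1 in that step from -0.052 to 0.0085. With the mean of probe sets OAZ1 at 24 h was 0.0089, PAOX at 96 h 0.055, AMD1 from 48 to 96 h 0.037 and the late difference between arms of APIP 0.045. Quantile normalization gave SMS 0.031 and 238334_at of PAOX -0.042 at 96 h, and AZIN1 0.021 from 48 to 96 h. On 238334_at a pseudocount of 1 gave -0.23 and median centring -0.12. Median centring gave -0.061 for the late difference between arms of SMS.

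Median centring made 38.6% of calls higher at 48 h (53.5% as reported), 34.3% from 24 to 48 h (51.7%), 40.4% for late against early in shOTX2 (55.4%), 37.9% for the late (51.8%) and 40.1% for the 96 h difference between arms (50.8%). Probe sets near the array median, such as the dimmer ones of PAOX, limit what can be measured.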
